A study of Bos taurus with 9 samples.

Results

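The values described here belong to 185 probesets of an Affymetrix bovine expression array whose signal was lower after both PACAP and TNF-alpha than in untreated adrenal chromaffin cells. A probeset is a set of short probes read together as a single measurement, usually of a single transcript. The members were chosen among 24016 probesets, control probesets left out, by a rule on the log2 values themselves. The mean of the 3 PACAP arrays and the mean of the 3 TNF arrays both had to lie at least 0.5 below the mean of the 3 untreated arrays. In addition, each of the 6 differences between a treated array and the untreated array of the same repeat number had to be -0.25 or lower. The same rule turned round found 107 probesets that were raised by both treatments.

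The 9 arrays measured total RNA of cattle chromaffin cells in primary culture. The cells were dissociated from the adrenal medulla with collagenase and purified by differential plating. There were 3 arrays of cells left untreated, 3 of cells given PACAP-38 at 100 nM for 6 h and 3 of cells given TNF-alpha at 10 nM for 6 h. The doses of the agents thus differed. No label names a genetic change in any group, and the labels of the treated cells describe a medium with fetal calf serum and cytosine arabinoside, a compound toxic to dividing cells. Per the design text the 3 arrays of a group were repeats of a technical kind, and whether their numbers stand for separate cultures or animals is not in the labels. A p-value here therefore measures the spread among arrays and possibly no more than technical error.

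Chromaffin cells are the neuroendocrine cells of the adrenal medulla, which make and secrete catecholamines and peptides. PACAP is a neuropeptide released by the nerve endings on these cells; its receptor is coupled to cAMP and calcium signalling, through which it stimulates secretion and the transcription of neuropeptide genes. TNF-alpha is an inflammatory cytokine, whose receptors signal to NF-kB and to the stress-activated protein kinases. The series asked which genes each agent regulates up or down. The level of a transcript at a given time reflects both its synthesis and its decay. In RNA from a whole culture, fewer cells of a type and less RNA per cell cannot be told apart.

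None of the probeset IDs, 0 of 24016, could be paired with a gene through the gene table used here. The members are therefore described by their values, their ID suffixes and their rank by mean change, rank 1 being the probeset with the lowest mean of the PACAP and TNF changes. Gene functions are not given, and the labelled cell type was not set against its marker genes. IDs are printed for the first 2 ranks only.

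Arrays of repeat 3 stood apart from those of repeats 1 and 2 at the members in the untreated and TNF groups. The untreated repeat 3 array was the lowest of its group at 159 of the 185 members, against 35.8% of all probesets. Its values lay a median of 0.30 below the mean of untreated repeats 1 and 2 over the members, whereas over all probesets the median gap was 0.01 above. The TNF repeat 3 array was the lowest of its group at 116 members, against 34.1% of all probesets, and its median gap from repeats 1 and 2 was -0.14 at the members and 0.04 over all probesets. The PACAP repeat 3 array was the lowest of its group at 73 members and the highest at 77, against 32.8% and 39.4% of all probesets, and its median gap was 0.01 at the members and 0.02 over all probesets. TNF repeat 3 also had the largest mean 3' minus 5' difference of 5 spike-in control transcripts, 1.22 (log2) against 0.80 to 0.97 on the other arrays. What part these differences between arrays had in the decreases was not tested, and values by repeat are given with the results.

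**Figure D1:**
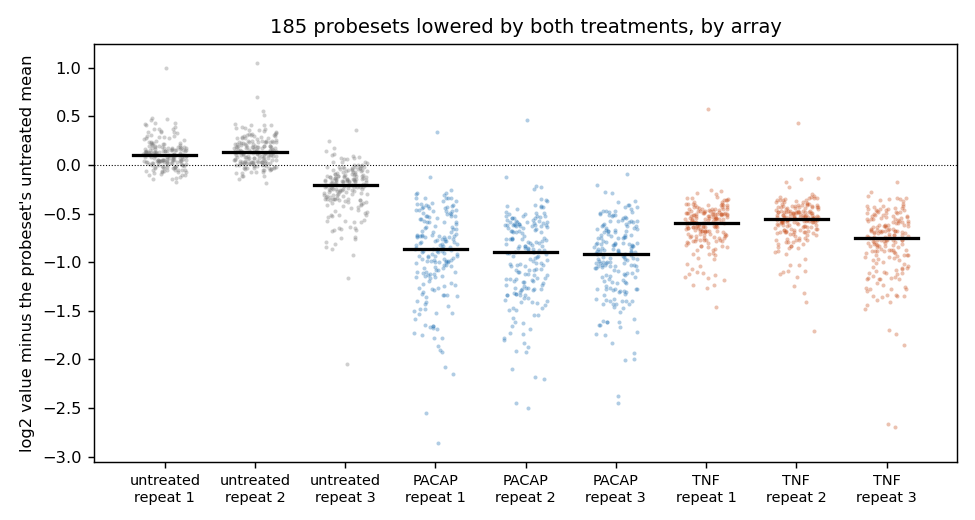
Each point is 1 of the 185 members on 1 array, as its log2 value minus its own mean over the 3 untreated arrays; black bars are medians. The medians were 0.10, 0.13 and -0.20 on untreated repeats 1, 2 and 3, between -0.92 and -0.87 on the PACAP arrays, and -0.59, -0.55 and -0.75 on TNF repeats 1, 2 and 3.

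Most members, 150 of the 185, were lowered further by PACAP than by TNF. Over all probesets, which passed no such rule, the PACAP mean was the lower one at 47.4%. PACAP changes were the wider ones over all probesets, so an equal limit for both agents favours this order among the members. With PACAP the log2 change ran from -2.60 to -0.51 with a median of -0.87, which is a fold of 1.83, and with TNF it ran from -1.75 to -0.50 with a median of -0.62, a fold of 1.54. Over all 24016 probesets the median changes were 0.00 with PACAP and -0.01 with TNF. These values chose the members, so the decreases are described and not tested. The change with TNF was a median 74.4% of the change with PACAP on the log2 scale. The level was at least 2-fold lower with both treatments at 8 members, with PACAP alone at 61 and with TNF alone at 2, while 114 members were lowered less than 2-fold by each. Over all 24016 probesets, 8 were at least 2-fold lower with both, 213 with PACAP alone and 5 with TNF alone. Both comparisons were made with the same 3 untreated arrays, so a high value there enters both changes.

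The size of the decrease differed between repeats. With PACAP the median change of the members was -0.94 in repeat 1, -1.03 in repeat 2 and -0.65 in repeat 3. With TNF the medians were -0.68, -0.69 and -0.52. The PACAP change was weakest in repeat 3 at 143 members (77.3%, against 38.5% of all probesets) and the TNF change at 122 (65.9%, against 44.4%). At 53 members untreated repeat 3 lay at least 0.5 below the mean of the other untreated arrays. There the median PACAP change was -0.99 and -1.03 in repeats 1 and 2 and -0.55 in repeat 3, and the median TNF change was -0.82, -0.79 and -0.52. Untreated repeat 3 enters both repeat 3 changes, so weaker changes there follow in part from how these members were split off. The other 132 members had median PACAP changes of -0.93, -1.03 and -0.68 and median TNF changes of -0.67, -0.65 and -0.52.

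All 6 treated arrays lay below all 3 untreated arrays at 150 of the 185 members, a pattern seen at 5.68% of all probesets; the rule favoured this pattern without requiring it. The PACAP arrays lay below all untreated arrays at 167 members, against 16.8% of all probesets, and the TNF arrays at 155, against 9.35%. At the 35 members outside the 150, a treated array reached the level of an untreated one. In 34 of these the untreated array concerned was repeat 3. Within repeats 1 and 2 the 4 treated arrays lay below both untreated arrays at all 185 members and at 19.6% of all probesets, an order that the limit on each repeat nearly fixes where the untreated arrays are close. The 3 untreated arrays lay within 0.2 of each other at 37 members, whose median changes were -0.84 with PACAP and -0.59 with TNF.

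The member with the lowest mean change was Bt.29835.1.S1_at. Its log2 values were 7.52, 7.75 and 5.89 on untreated repeats 1, 2 and 3, 4.20, 4.55 and 4.60 with PACAP, and 5.89, 6.03 and 5.36 with TNF. Untreated repeat 3 stood far below the other untreated arrays and within the range of the TNF arrays, while the PACAP arrays lay below every other array. The mean was 7.05 ± 1.02 (SD, n = 3) untreated, 4.45 ± 0.22 with PACAP, 6.08-fold lower, and 5.76 ± 0.35 with TNF, 2.46-fold lower. Its direct difference between the treatments was -1.31 (SE 0.43) and did not pass the test (limma adjusted p = 0.104), but passed in 4 alternatives: with the replicate block (limma adjusted p = 0.0335), in the fit of the 6 treated arrays (0.0137), without untreated replicate 3 (0.00444) and in repeats 1 and 2 alone (0.000199).

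The second, Bt.29415.1.A1_at, had log2 values of 6.72, 6.80 and 5.64 untreated, 4.31, 4.21 and 4.38 with PACAP, and 4.92, 4.97 and 4.65 with TNF. Here too untreated repeat 3 was low, but all 6 treated arrays stayed below it. The means were 6.38 ± 0.65 (SD, n = 3) untreated, 4.30 ± 0.09 with PACAP, 4.25-fold lower, and 4.85 ± 0.17 with TNF, 2.90-fold lower.

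Some of the next members had steadier untreated arrays. The member ranked 4 stood at 6.27, 6.06 and 6.06 untreated, at 4.61, 4.21 and 4.70 with PACAP and at 4.87, 4.98 and 4.79 with TNF, so that the treated arrays lay more than 1 log2 unit below the untreated ones and every PACAP array lay below every TNF array. It was 3.08-fold lower with PACAP and 2.38-fold lower with TNF, and the difference of -0.37 (SE 0.13) did not pass the test (limma adjusted p = 0.127). That difference passed in 1 of 15 alternatives (limma adjusted p = 0.0349). The member ranked 7, with a higher level and a low untreated repeat 3, stood at 9.56, 9.42 and 8.69 untreated, at 7.69, 7.73 and 7.58 with PACAP and at 8.11, 8.11 and 7.95 with TNF, folds of 2.94 and 2.25. Its PACAP arrays lay below its TNF arrays in every repeat, by a mean of 0.39 (SE 0.20) that did not pass the test (limma adjusted p = 0.31). The SE is from the fit without a replicate block. This difference passed in 3 of 16 alternatives, the lowest limma adjusted p being 0.0105. The member ranked 10 had untreated values of 6.90, 6.94 and 6.89, the tightest among the first 12 ranks. With PACAP it stood at 5.25, 5.29 and 6.04 and with TNF at 5.80, 5.66 and 6.02, so that the agents were apart in repeats 1 and 2 and almost level in repeat 3.

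**Figure D2:**
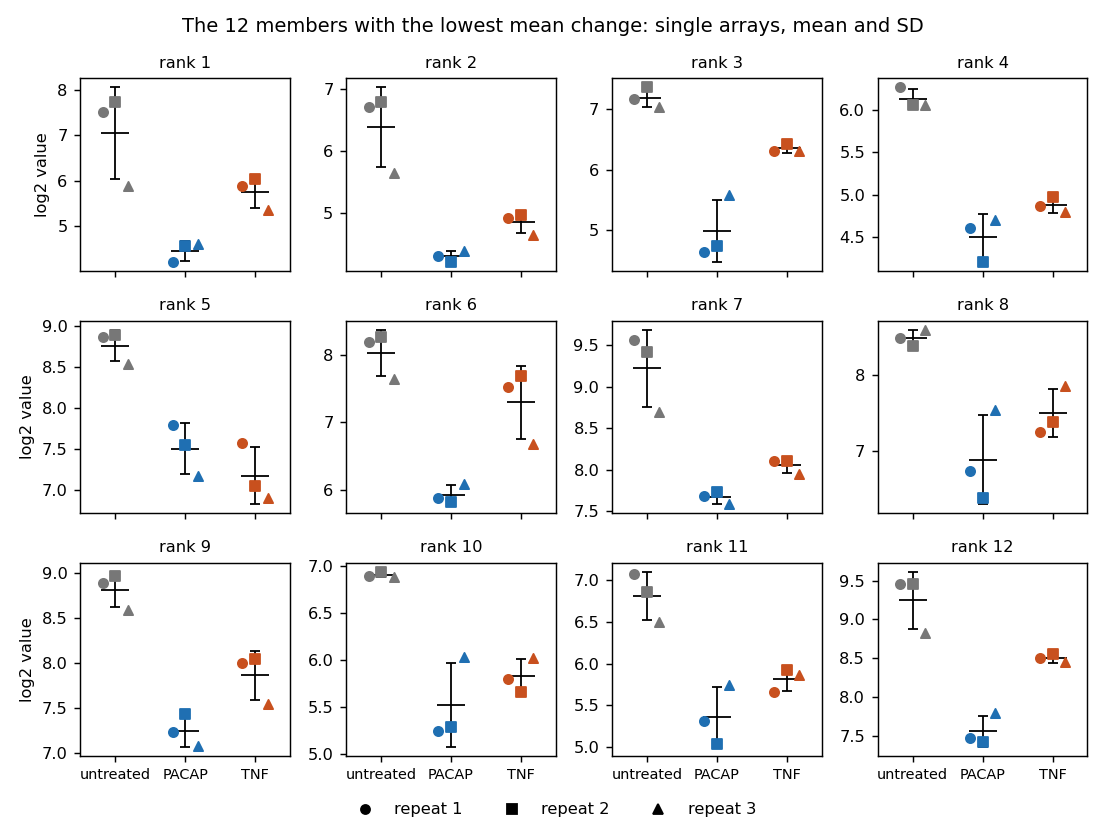
Log2 values of the 12 members with the lowest mean change, by group; symbols mark the repeat number, and bars give the mean and SD of 3 arrays, on an axis of its own in each panel. Untreated repeat 3 (grey triangle) is the lowest untreated value in most panels and far below the others at rank 1, where it was 5.89, and at rank 2, where it was 5.64.

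PACAP and TNF were then compared directly. The rule bounded both changes from above and so did not fix the sign of their difference, but it used the same arrays, which limits what this test can show. By limma, 31 of the 185 members were lower with PACAP than with TNF at an adjusted p under 0.05, or 16.8%, against 5.1% of all probesets. The number lower with TNF was 0, against 3.97% of all probesets called higher with PACAP than with TNF; at an unadjusted p under 0.05 the counts were 67 lower with PACAP, against 11.4% of all probesets, and 1 lower with TNF, against 9.98%. The median of the difference was -0.23 over the members and 0.01 over all probesets. Over all probesets the changes with PACAP were also wider, with quartiles of -0.16 and 0.12, against -0.11 and 0.08 with TNF. The rule set the same limit for both agents, which with wider PACAP changes favours members lowered further by PACAP. The excess of calls in that direction is therefore not read as a result about the members.

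The number of members lower with PACAP than with TNF depended on single arrays. It became 48 without untreated replicate 3, which enters only the spread, against 5.67% of all probesets in that fit. Without PACAP replicate 1 it was 14 (3.13% of all probesets) and without PACAP replicate 2 it was 15 (2.88%). Without TNF replicate 1 it was 12 (2.83%) and without TNF replicate 2 it was 10 (2.62%), so that the share of all probesets called was smaller in these fits as well. With the replicate number as a block it was 55 (8.47% of all probesets), with 1 member lower with TNF (6.9%). Repeats 1 and 2 alone gave 88, against 12.3% of all probesets, and 2 in the other direction, against 10%.

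**Figure D3:**
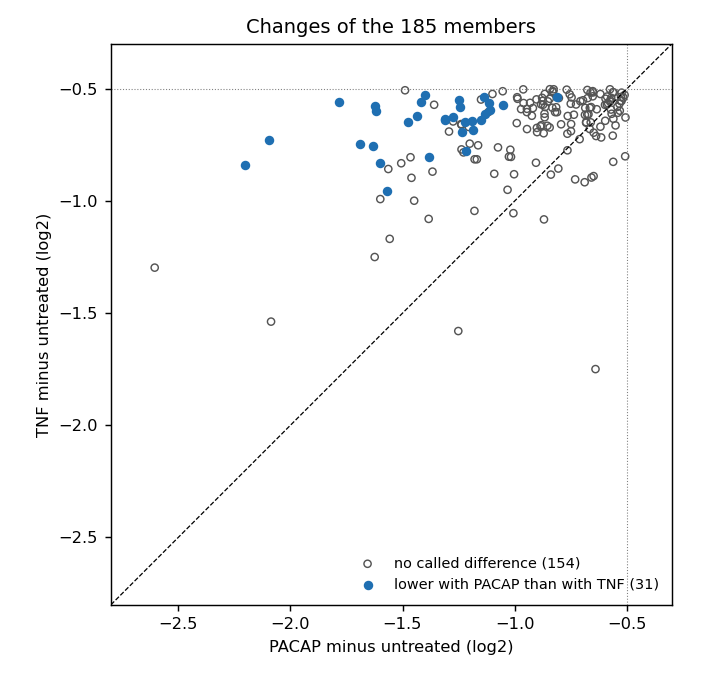
Mean log2 change of each member with PACAP (horizontal) and with TNF (vertical) against untreated cells; dotted lines mark the -0.5 limit of the rule and the dashed line equal changes. The 31 filled points, called lower with PACAP than with TNF by limma, lie above the dashed line, as do most of the 154 open points, and 35 members lie below it.

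All 31 called members had every PACAP array below every TNF array, an order that the call itself favours. The same pattern was seen at 67 of the 185 members and at 12% of all probesets. Their changes with PACAP ran from -2.20 to -0.81 with a median of -1.31, and 30 of them were at least 2-fold lower. With TNF the changes of these 31 ran from -0.95 to -0.53 with a median of -0.63. The 154 members without a called difference had medians of -0.82 with PACAP and -0.62 with TNF. The medians with TNF were thus close in both classes and those with PACAP were not; the classes were split by this difference itself.

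The 4 largest called differences belonged to the members ranked 6, 3, 18 and 24. The member ranked 6 stood at 8.18, 8.27 and 7.63 untreated, at 5.88, 5.82 and 6.09 with PACAP and at 7.52, 7.69 and 6.68 with TNF. Its TNF arrays of repeats 1 and 2 lay close to untreated repeat 3, while the PACAP arrays lay well below all others. The difference was -1.36 (SE 0.26, limma adjusted p = 0.0124), or 2.58-fold; it did not pass without PACAP replicate 2 (0.0535), TNF replicate 1 (0.0576) or TNF replicate 2 (0.0547). The member ranked 3 had PACAP values of 4.64, 4.75 and 5.58 and TNF values of 6.31, 6.43 and 6.31, against 7.17, 7.36 and 7.04 untreated. The difference between PACAP and TNF was -1.36 (SE 0.22), with a limma adjusted p of 0.0055, and repeat 3 was its highest PACAP array.

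The member ranked 18 had the third largest called difference, -1.22 (SE 0.16, limma adjusted p = 0.00238), with PACAP values of 6.21, 6.20 and 6.46 and TNF values of 7.61, 7.59 and 7.35. Untreated it stood at 8.22, 8.32 and 7.69, so that TNF repeats 1 and 2 came close to untreated repeat 3. At rank 24 the PACAP values were 8.54, 8.28 and 8.37 and the TNF values 9.43, 9.54 and 9.36, a difference of -1.05 (SE 0.15, limma adjusted p = 0.00326). The differences at ranks 3, 18 and 24 passed the test in all alternatives in which these members were tested, 15, 16 and 16 of them.

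**Figure D4:**
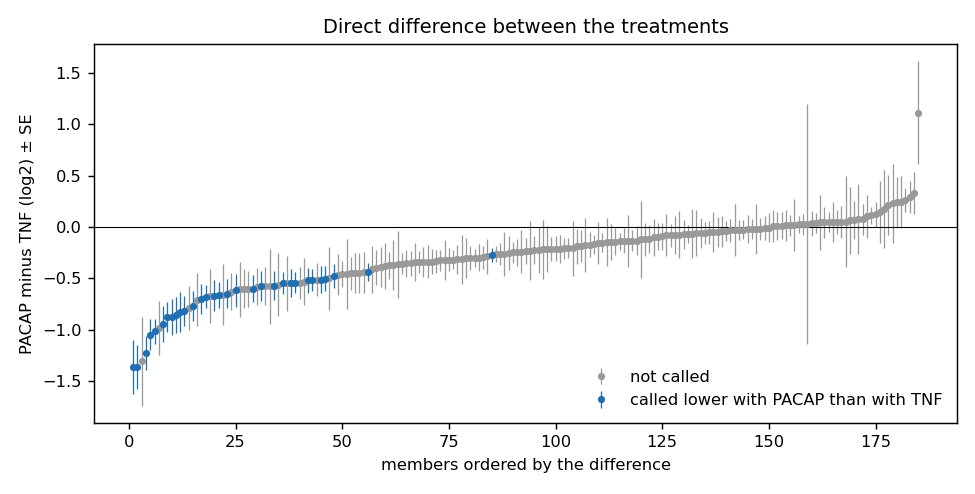
PACAP minus TNF for each of the 185 members with its moderated SE, ordered by size; filled blue points are the 31 called lower with PACAP than with TNF. The values run from -1.36 to 1.11, and 150 members lie below 0, against 47.4% of all probesets, an order that the rule favours.

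TNF gave the larger mean decrease at 35 members, while its mean was the lower one at 52.6% of all probesets. At 10 of the 35 the TNF array lay below the PACAP array in every repeat. PACAP lay below TNF in every repeat at 101 members, against 21.2% of all probesets, and the opposite order was found at 22.2% of all probesets. The rule favours members lowered further by PACAP, so these shares are not read as a result about the members. The clearest case, chosen after its values were seen, was the member ranked 15. It stood at 7.89, 8.08 and 6.60 untreated, at 7.15, 7.27 and 6.22 with PACAP and at 6.29, 6.21 and 4.82 with TNF. Every array of repeat 3 was the lowest of its group there, and the TNF array was the lowest of each repeat. The level was 3.36-fold lower with TNF, the largest decrease among the members with that agent, and 1.56-fold lower with PACAP. The difference between the agents was 1.11 (SE 0.50) and did not pass (limma adjusted p = 0.247), except with the replicate block (limma adjusted p = 0.000472) and in repeats 1 and 2 alone (0.000346).

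The member ranked 5 was also lower with TNF, at 7.58, 7.05 and 6.91 against 7.80, 7.55 and 7.18 with PACAP and 8.86, 8.88 and 8.54 untreated. The order was the same in each repeat, but the difference of 0.33 (SE 0.21) did not pass (limma adjusted p = 0.432). All TNF arrays lay below all PACAP arrays at 1 member, ranked 154, against 11.2% of all probesets.

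The agents were close to each other at other members. The treatment means lay within 0.1 of each other at 49 members. The share of all probesets that close is not given here. Differences lay nearer to equality over all probesets than at the members. The quartiles of PACAP minus TNF were -0.11 and 0.12 over all probesets and -0.50 and -0.04 over the members. The brightest member, ranked 148, stood at 12.06, 12.08 and 12.04 untreated, at 11.47, 11.23 and 11.48 with PACAP and at 11.37, 11.35 and 11.70 with TNF. It was 1.59-fold lower with PACAP, and the difference between the agents was -0.08 (SE 0.11, limma adjusted p = 0.774). No treated array reached an untreated one, which the limit on each repeat fixes where the untreated arrays are this close. The next brightest, ranked 26, had a called difference of -0.83 (SE 0.20, limma adjusted p = 0.0334) and values of 12.08, 11.85 and 11.31 untreated, 10.29, 10.20 and 10.32 with PACAP, and 11.26, 11.27 and 10.77 with TNF. That call was lost in 6 alternatives, the highest adjusted p being 0.133 without TNF replicate 2.

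The members spanned most of the array's range of signal but were rare at its bottom. Their untreated means ran from 3.90 to 12.06 with a median of 7.90, against 6.71 over all probesets. When all probesets were ordered by untreated level and divided into 4 equal classes, 6 members lay in the lowest class, 36 and 76 in the middle classes and 67 in the top class. The spread among untreated arrays was larger at the members than elsewhere, a median SD of 0.20 against 0.10, and this held with PACAP (0.21 against 0.12) and with TNF (0.16 against 0.12). Untreated repeats 1 and 2 differed by a median of 0.09 at the members and 0.08 over all probesets, so that the larger untreated spread lay with repeat 3. With TNF this difference was 0.083 at the members and 0.083 over all probesets. With PACAP it was 0.144 and 0.1145, so that the larger spread there did not lie with repeat 3 alone.

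The strongest example of a split by repeat was the member ranked 178, chosen after its values were seen. It stood at 9.73 and 9.78 on untreated repeats 1 and 2 and at 6.68 on repeat 3. With PACAP the values were 9.07, 9.19 and 6.36 and with TNF 9.31, 9.16 and 6.07. Every array of repeat 3 was thus about 3 log2 units below its group, while the change within each repeat ran from -0.66 to -0.32 with PACAP and from -0.62 to -0.43 with TNF. In all, untreated repeat 3 lay at least 1 below the mean of the other untreated arrays at 13 members, 11 of which were among the 35 whose treated and untreated arrays overlapped.

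The rule was also applied to 2 repeats, and the changes in the remaining one were read. Per the design text the arrays are technical repeats. This reading therefore describes how far decreases were shared between arrays. It cannot decide whether they would recur in other cultures. The rule on repeats 2 and 3 found 197 probesets. In repeat 1, 170 of them (86.3%) had both changes at -0.25 or lower, against 8.62% of all probesets, and their median changes there were -0.88 with PACAP and -0.61 with TNF. On repeats 1 and 3 the rule found 180 probesets, of which 160 (88.9%) met the limit in repeat 2, against 9.32% of all probesets, with medians of -1.03 and -0.61.

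In repeat 3 the share was smaller. Applied to repeats 1 and 2, the rule gave 408 probesets, and 204 of them (50%) met the limit in repeat 3, against 6.44% of all probesets. Their median changes were -0.85 with PACAP and -0.64 with TNF in the repeats that chose them, and -0.45 and -0.29 in repeat 3. With PACAP 385 of the 408 were lower than untreated in repeat 3 and with TNF 346 were. Within a repeat both changes share 1 untreated array, and no label shows the repeats to be independent cultures. The lists also differed from the members. Of the 197, 180 and 408 probesets, 155, 145 and 170 were members. The shares above are therefore not read as a replication of the members' decreases.

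**Figure D5:**
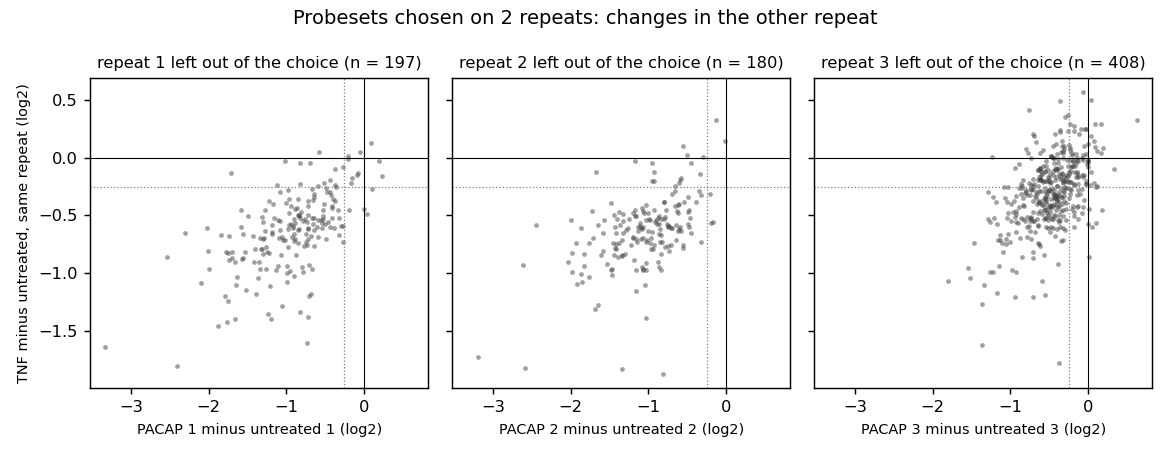
Changes with PACAP (horizontal) and TNF (vertical) in the repeat left out, for probesets chosen by the rule on the other repeats; dotted lines mark -0.25. Of 197, 180 and 408 probesets, 170, 160 and 204 lie in the lower left corner below both dotted lines when repeats 1, 2 and 3 are left out.

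A further measure outside the rule came from other probesets of the same sequences. The number that opens an ID on this array is that of a sequence cluster, so probesets sharing it were designed against sequences grouped as 1 transcript or gene. The members belonged to 179 clusters, of which 141 had a single probeset on the array. The remaining 38 clusters held 44 members and 43 other probesets. Of these 43, 37 had a mean below untreated with both agents, 86.0% against 36.5% of all probesets. By limma 18 were lower with PACAP, against 8.49% of all probesets, and 1 with TNF, against 0.575%. The number called higher was 0 with either agent, against 5.95% of all probesets with PACAP and 1.33% with TNF. With the replicate block, 25 were lower with PACAP, against 12.7% of all probesets, and 10 with TNF, against 2.52%. Repeats 1 and 2 alone gave 26 (16.7% of all probesets) and 15 (6.24%). The single TNF call was lost without untreated replicates 1 or 2, PACAP replicates 1 or 2, or TNF replicates 1 or 2, leaving 0 each time, and there were 4 without untreated replicate 3, against 1.29% of all probesets.

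The other probesets were lowered less than the members they accompanied. Their median changes were -0.47 with PACAP and -0.23 with TNF, against -0.83 and -0.59 for the 44 members, which the rule had chosen for large decreases. They were dimmer too, at a median untreated level of 6.94 against 8.12. Changes of the 43 ran from -1.11 to 0.13 with PACAP and from -0.64 to 0.18 with TNF, so that some probesets of a member's own cluster were not lower. Probesets of 1 cluster share their RNA and can share sequence, and they are not replicates.

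Of the 38 clusters, 4 had 2 members and 1 had 3. The cluster with 3 members held ranks 14, 16 and 92, at untreated means of 6.84, 8.54 and 4.99. Rank 16 stood at 8.65, 8.61 and 8.38 untreated, at 6.64, 6.85 and 7.24 with PACAP and at 7.84, 7.87 and 7.67 with TNF. At rank 14 the values were 6.94, 6.93 and 6.65 untreated, 5.19, 4.93 and 5.71 with PACAP, and 6.12, 6.39 and 5.45 with TNF. PACAP minus TNF was -0.71, -0.88 and -0.45 at ranks 14, 16 and 92, and the second of these passed the test (limma adjusted p = 0.00766) while the others did not (limma adjusted p = 0.142 and 0.138). At rank 14 the TNF array was the lower one in repeat 3, and the difference passed the test in 2 of 15 alternatives. In the dimmest, rank 92, the changes were the smallest of the cluster, -0.99 with PACAP and -0.54 with TNF.

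By their IDs, 176 members had probes meant for a single transcript (suffix _at), 6 for several transcripts of 1 gene (_a_at) and 3 for several related transcripts (_s_at); none had the suffix for probes that may cross-hybridise (_x_at). Over all probesets these classes made up 93.3%, 5.33%, 0.979% and 0.379%. The makeup of the members was thus close to that of the array.

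The limits of the rule passed through a continuous range of values. Just inside the limit on mean changes lay members with TNF changes of -0.502, and just outside it lay probesets at -0.4997 and -0.4987, whose PACAP changes were -0.93 and -1.08. For the limit on single repeats, the weakest differences inside were -0.255 and -0.253 and the strongest outside -0.247 and -0.245. In all, 238 probesets met the limit on both means, and 53 of them failed the limit on single repeats. Of these, 47 failed in repeat 3 only and 6 in repeat 1 or 2. At 2 members, ranked 63 and 90, the deposited value was the same on all 3 TNF arrays, 6.27 and 10.73.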

How the data were processed

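The authors deposited a log2 value for each probeset on each array. Affymetrix Expression Console and RMA, which corrects background, equalises the arrays' distributions and summarises probes, are named per the submitters' processing notes; their versions are not given in the sources. Of 24128 probesets, 112 controls were left out. Precision is limited by the number of arrays. The design text also mentions Agilent arrays, not analysed here.

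The rule was applied to the values as deposited. Group means were fitted to all 9 arrays with limma 3.58.1 in R 4.3.3 (6 residual degrees of freedom, empirical Bayes), two-sided, with Benjamini-Hochberg adjustment over 24016 probesets and calls at an adjusted p under 0.05. Errors of differences are moderated SEs. The procedure was run on simulated arrays with independent errors and no effect of the repeat number. That check therefore does not cover deviations shared by same-numbered arrays. The members and the lists were chosen with earlier results of these data known. The rule for naming genes (lowest mean changes, largest called differences, highest levels, values beside the limits) was applied to probesets by rank; fixed lists of pathway and cell type marker genes were not tested, for want of gene names.

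Same-numbered arrays deviated together from the group means, with correlations of 0.23 to 0.47 (repeat 1), 0.41 to 0.53 (repeat 2) and 0.57 to 0.65 (repeat 3), all over the limit of 0.1, so the numbers may pair the arrays. The reported fit has no block, as planned, and the fit with one is given beside the results it changes. No label explains the numbers, and repeats 1 and 2 of different groups correlated at 0.09 to 0.61 as well. The alternatives tried were a replicate block, cyclic loess, median centring, brighter probesets only, an intensity trend with a robust prior, 6 arrays, each array left out and, chosen after seeing the data, repeats 1 and 2 alone.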

Additional observations from a re-analysis of the deposited data

How the results depend on the processing

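The rule found 163 members after cyclic loess and 149 after median centring, of which 161 and 149 were among the 185. It found 121 among the brighter probesets alone and 8 at limits of -1 and -0.5. With 1 repeat left out it found between 180 and 408, the latter without replicate 3 and holding 170 of the members. The median change in repeat 3 alone was -0.65 with PACAP and -0.52 with TNF. The number of members lower with PACAP than with TNF was 55 with the replicate block, 88 in repeats 1 and 2, and 10 to 48 with single arrays left out; of the 31, all 31 were among the 55 and the 88. In the other direction it was 1 with the replicate block, 2 in repeats 1 and 2, and 0 to 1 with single arrays left out.

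Over all probesets, those lower with PACAP numbered 2040, 984 to 2391 with single arrays left out and 4001 in repeats 1 and 2. Those lower with TNF numbered 138, 606 with the replicate block, 62 in fits of 6 arrays, 12 to 310 with single arrays left out and 1499 in repeats 1 and 2. Among the other probesets of the members' clusters, those lower with TNF numbered 0 after cyclic loess, 10 with the replicate block, 0 in fits of 6 arrays, 15 in repeats 1 and 2 and 0 to 4 with single arrays left out. The difference at rank 148, which was not called, ran from -0.14 to 0.033 with single arrays left out and changed sign without PACAP replicate 2 (0.0027) and without TNF replicate 3 (0.033). The cause of these shifts was not tested. Other counts of members and calls stayed within 1.5 times of those reported. The differences at 24 members were each set beside their values under each alternative. These members leave out some described by rank above and include others not described. Of the values, 323 kept direction and side of the threshold, 31 became called, 20 lost the call and 2 changed sign.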
